A study of Homo sapiens with 12 samples.

Results

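The comparison described here set SRA01/04 cells treated with 1,2-DHN for 24 hours (DHN) against untreated cells of the same line (NC), both without added asparagine. It rests on 6 of the 12 libraries of the series, 3 in each group. SRA01/04 is a human lens epithelial line immortalised with the SV40 large T antigen, so that all groups share its altered growth control, and only this line was used. The other groups were treated cells given asparagine (DHN-A) and untreated cells given asparagine (NC-A), with 3 libraries each. The sources used here give neither the doses of 1,2-DHN and asparagine nor any carrier in untreated cells.

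1,2-DHN (1,2-dihydroxynaphthalene) is a catechol formed when the body breaks down naphthalene, a compound long known to cause cataract in rodents and rabbits. It oxidises readily to 1,2-naphthoquinone, which reacts with protein thiols and can pass electrons to oxygen. The lens epithelium is a single cell layer under the front of the lens capsule, a basement membrane of collagen IV, laminin and heparan sulfate proteoglycans that it secretes, and it supplies the fibre cells with new cells throughout life. Heat shock, NRF2 and ATF4 targets are the responses usually described after an electrophile, and the account below turns to the genes and pathways around them.

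Total counts ran from 12381071 to 21318168 per library in DHN and from 16514049 to 24225424 in NC, and genes of mitochondrial DNA held 2.73% to 2.96% of them in DHN and 3.01% to 3.23% in NC. Replicates varied beyond counting noise with a coefficient of variation of 4.60%. Whether replicates were separate cultures is not stated, so p-values reflect just the variation among these libraries, which may be technical. A library of the asparagine groups, NC-A 1, stood apart on the first principal component (-65.1, against -12.5 and -10.4 for the other NC-A libraries). It bears on the values below because filter, scaling and spread are shared by all libraries.

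Exposure to 1,2-DHN moved a large part of the transcriptome by small amounts and a few genes by a great deal, mostly upward. Of 17889 tested genes, 6919 (38.7%) were called at an adjusted p under 0.05 by edgeR's quasi-likelihood test with Benjamini-Hochberg adjustment, 3520 higher (19.7%) and 3399 lower (19.0%). Without NC-A 1, the count was 7112. Among the 13310 tested protein-coding genes, which fill most of the lists below, 23.9% were called higher and 23.5% lower. Both shares are above those of all tested genes, which also hold non-coding genes and pseudogenes. The median size of a called change was 0.35 on the log2 scale, or 1.27-fold, and 5336 called genes (77.1%) changed by less than 1.5-fold. In 6506 of the called genes (94.0%) the DHN and NC libraries did not overlap, against 46.2% of all tested genes. Calls of at least 2-fold (3.55%) were less balanced, with 450 higher (2.52%) and 185 lower (1.03%), and calls of at least 4-fold numbered 118 higher and 17 lower. The median change over all tested genes was 0.00729. The gene lists below were drawn up with earlier results of these data known. Their shares, set beside those of all tested genes, describe these data and are no independent test. All log2 changes below are given ± SE, are DHN over NC, and are approximate in their errors where the change is large.

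**Figure D1:**
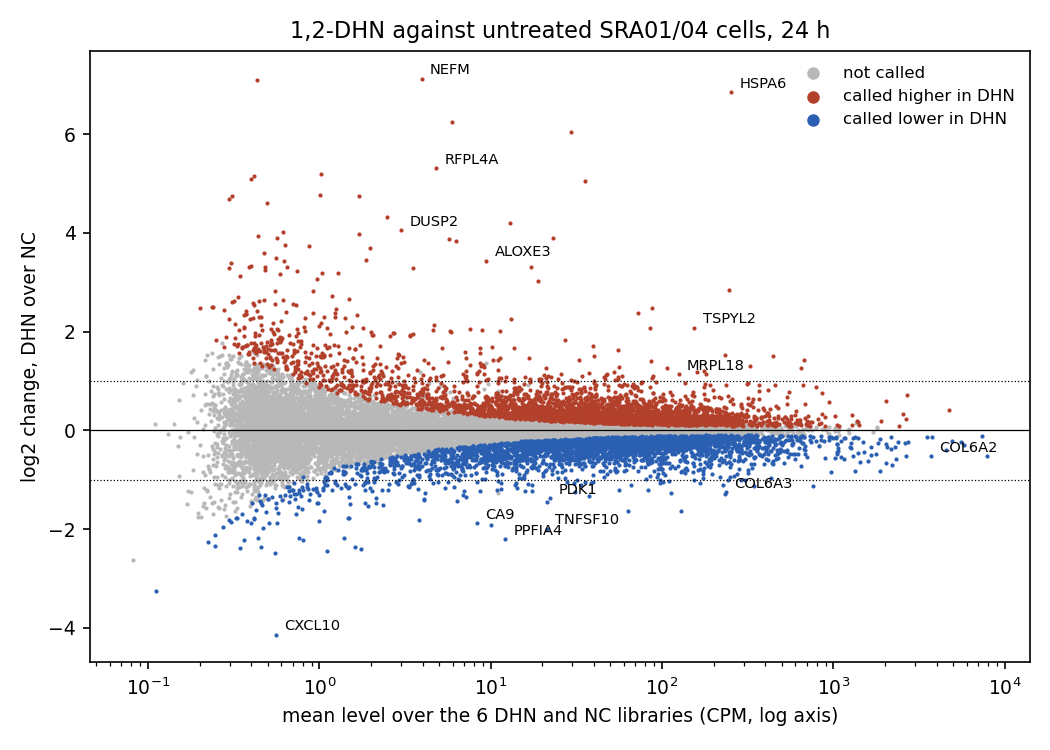
Log2 change of every tested gene (DHN over NC, vertical axis) against its mean level over the 6 libraries (CPM, read counts scaled to library size, log axis), each point a gene, with dotted lines at 2-fold. The 450 genes called at least 2-fold higher (red) reach further from zero than the 185 called at least 2-fold lower (blue), and most called genes lie inside the dotted lines.

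The largest rises beyond the heat shock and immediate early genes were mostly those of genes with low RNA levels in untreated cells. NEFM, the medium neurofilament subunit (chromosome 8 from 24913012 to 24919098 in GRCh38), had 124, 164 and 124 counts in the DHN libraries, against 0, 0 and 3 counts in the NC libraries. Its fitted log2 change of 7.13 ± 0.448 (edgeR adjusted p = 1.05e-17) depends on the near absence of counts in NC and is no estimate of a fold. RFPL4A, a little studied gene of the RING finger RFPL family (chromosome 19 from 55759014 to 55763175), was at 8.95, 11 and 8.37 CPM in the DHN libraries, against 0.186, 0.193 and 0.296 CPM in the NC libraries, a log2 change of 5.32 ± 0.294 (edgeR adjusted p = 5.47e-20). All 3 DHN libraries lay far above every NC library. The near-identical neighbour RFPL4AL1 had 13, 19 and 14 counts in DHN and 0 in each NC library, so reads may be split between the pair. DUSP2, a nuclear phosphatase that inactivates MAP kinases (chromosome 2 from 96143166 to 96145440), was at 6.12, 5.05 and 5.76 CPM in the DHN libraries, against 0.435, 0.193 and 0.38 CPM in the NC libraries, with no overlap between the groups.

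ALOXE3, the epidermal hepoxilin synthase eLOX3 (chromosome 17 from 8095900 to 8119047), was at 16.9, 18.8 and 15.9 CPM in the DHN libraries, against 1.62, 1.21 and 1.9 CPM in the NC libraries. Its rise of 3.44 ± 0.167 (edgeR adjusted p = 5.17e-22) corresponds to 10.8-fold. PELI2, a ubiquitin ligase of Toll-like receptor signalling (chromosome 14 from 56117814 to 56301526), was at 7.17, 6.96 and 5.02 CPM in the DHN libraries, against 0.621, 0.483 and 0.803 CPM in the NC libraries, a rise of 3.29 ± 0.262. RGS2, a GTPase-activating protein that shortens G protein signals (chromosome 1 from 192809039 to 192812283), was at 21.2, 21 and 23.2 CPM in the DHN libraries, against 4.6, 4.01 and 4.99 CPM in the NC libraries, a rise of 2.26 ± 0.142. Among genes with a higher baseline, chosen after their values were seen, TSPYL2, a nucleosome assembly family member that restrains proliferation (chromosome X from 53082367 to 53088540), was at 266, 245 and 238 CPM in the DHN libraries, against 60.8, 57.2 and 58.5 CPM in the NC libraries. The DHN libraries were 4.24-fold above the NC libraries in the fit, a log2 change of 2.08 ± 0.0477 (edgeR adjusted p = 1.06e-34). GADD45B, a stress-induced regulator of p38 signalling, was at 142, 147 and 157 CPM in the DHN libraries, against 27.5, 25.3 and 27.6 CPM in the NC libraries, a rise of 2.48 ± 0.0557. The 20 largest rises, taken only from genes whose groups did not overlap, also held HSPA6, HSPA1A, HSPA1B, CRYAB, ARC, RASD1, FOSB, FOS, EGR1, SNAI1, MYLIP and the ribosomal protein pseudogene RPLP0P2. HSPA1A and HSPA1B are near-identical, as are HSPA6 and its pseudogene HSPA7, and RPLP0P2 resembles its parent RPLP0, so the division of reads among them is uncertain.

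**Figure D2:**
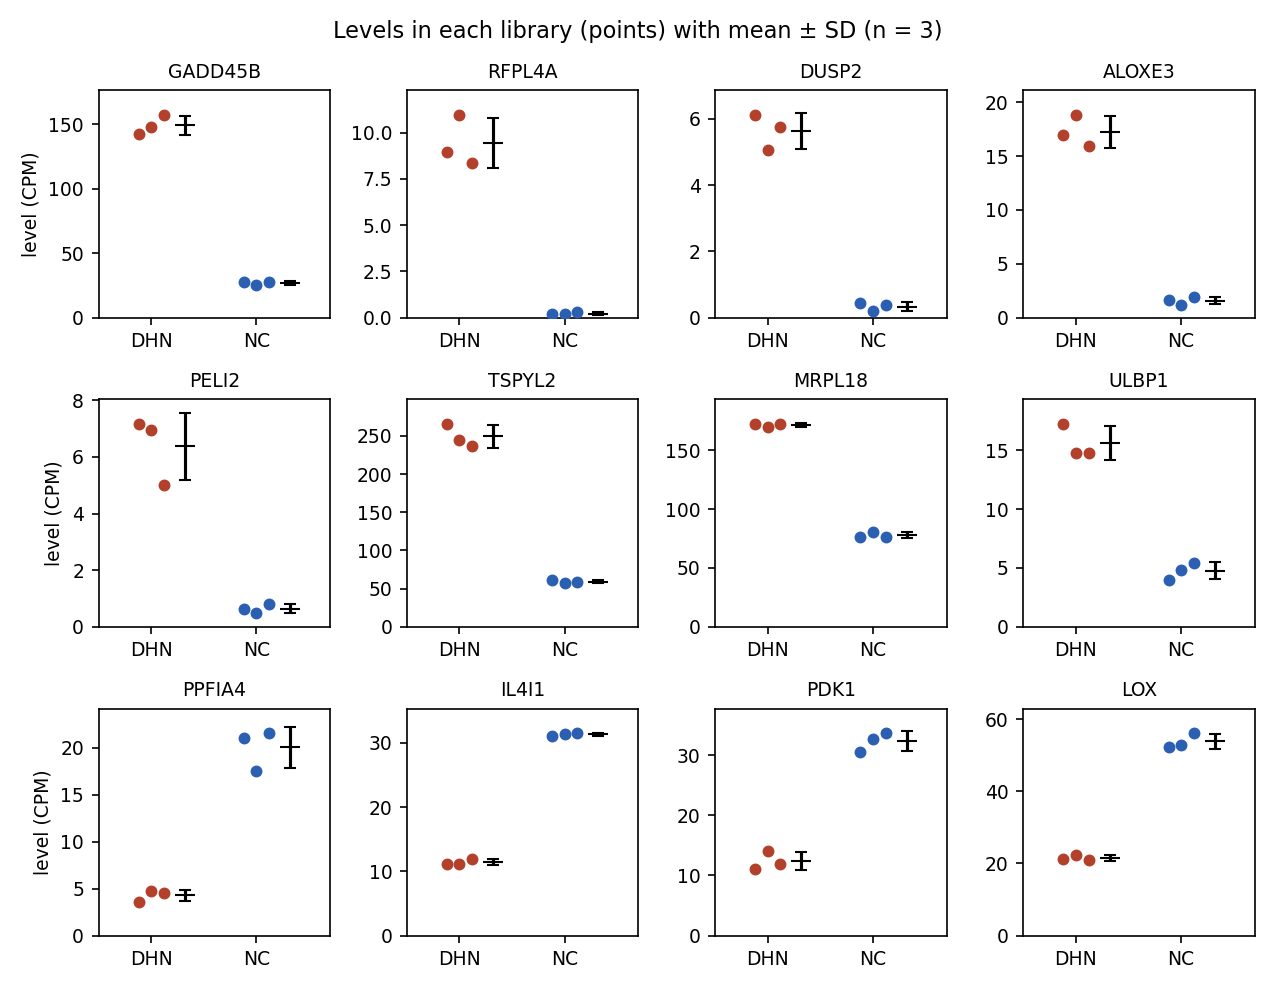
Levels in CPM of 12 genes in each DHN library (red, left) and each NC library (blue, right), with the mean ± SD (n = 3) beside the points and the vertical axes starting at 0. In every panel the groups do not overlap. GADD45B, RFPL4A, DUSP2, ALOXE3, PELI2, TSPYL2, MRPL18 and ULBP1 are higher in DHN, and PPFIA4, IL4I1, PDK1 and LOX are lower.

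The largest falls were smaller than the largest rises and included interferon-inducible, oxygen-regulated and matrix genes. PPFIA4, a liprin of cell adhesion and synapses that is also induced by low oxygen (chromosome 1 from 203026498 to 203078740), was at 3.63, 4.72 and 4.55 CPM in the DHN libraries, against 21.1, 17.6 and 21.6 CPM in the NC libraries, and fell by 2.20 ± 0.127 on the log2 scale. IL4I1, a secreted oxidase of aromatic amino acids (chromosome 19 from 49889654 to 49929539), was at 11.2, 11.1 and 11.9 CPM in the DHN libraries, against 31.1, 31.4 and 31.6 CPM in the NC libraries, and fell by 1.45 ± 0.0792 (edgeR adjusted p = 3.21e-20). The 3 libraries of each group were almost equal to each other. The cytosolic DNA sensor AIM2 was at 2.42, 2.57 and 1.86 CPM in the DHN libraries, against 5.72, 5.6 and 6.42 CPM in the NC libraries, and fell by 1.38 ± 0.182. XAF1, an interferon-induced antagonist of the caspase inhibitor XIAP, was at 4.35, 4.24 and 3.62 CPM in the DHN libraries, against 10.2, 10.8 and 10 CPM in the NC libraries, and fell by 1.35 ± 0.123. SLC15A3, a lysosomal transporter of histidine and small peptides, fell by 1.30 ± 0.132, and KLHDC7B, a kelch repeat gene, fell by 1.44 ± 0.151. Among the 20 largest falls were also PDK1, a kinase induced by low oxygen that inhibits pyruvate dehydrogenase, at 11.1, 14.1 and 11.9 CPM in DHN and 30.5, 32.7 and 33.7 CPM in NC (a fall of 1.37 ± 0.0863), and LOX, the enzyme that cross-links collagen and elastin, at 21.2, 22.3 and 20.9 CPM in DHN and 52.4, 52.8 and 56.2 CPM in NC (a fall of 1.33 ± 0.0656). TNFSF10, APLN, CA9, IDO1, GBP4, TENM2, BNIP3, HSH2D, MX1, EPSTI1, COL6A3 and the pseudogene RPL7P9 completed the 20.

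A short motif stood in a larger share of the promoters of the genes that fell most. Among 8185 tested genes with a RefSeq promoter (250 bases before to 50 after the start, GRCh38.p14), the core of the interferon-stimulated response element, on either strand, stood in 258 promoters (3.15%). It stood in 14 of the 72 matched genes called at least 2-fold lower (19.4%) and in 75 of 1702 called lower by less (4.41%). Among genes called higher it stood in 4 of 184 at 2-fold or more (2.17%) and in 43 of 1757 below it (2.45%). The stretches of 6 of the 14 are shown because these genes are interferon-inducible. They do not stand for all 14, which also held PCDHB15, ADAMTSL1 and FAM162A (log2 changes -1.87, -1.2 and -1.11). The element is bound by the interferon-activated factors ISGF3 and IRF1. Capitals mark the letters of the core, on the strand of the gene, and the genes, chosen after their values were seen, are followed by their places.
CXCL10: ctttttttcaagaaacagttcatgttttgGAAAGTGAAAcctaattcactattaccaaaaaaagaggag
TNFSF10: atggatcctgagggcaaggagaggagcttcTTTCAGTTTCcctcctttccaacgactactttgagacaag
AIM2: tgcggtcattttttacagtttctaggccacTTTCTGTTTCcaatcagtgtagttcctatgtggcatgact
EPSTI1: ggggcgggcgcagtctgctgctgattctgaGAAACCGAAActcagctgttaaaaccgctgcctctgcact
HLA-F: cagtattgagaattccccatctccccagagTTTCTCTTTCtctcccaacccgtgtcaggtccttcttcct
OAS3: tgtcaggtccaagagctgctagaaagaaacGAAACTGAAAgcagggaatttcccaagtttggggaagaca
The CXCL10 stretch is at chr4:76023679-76023747 on the minus strand, the TNFSF10 stretch at chr3:172523578-172523647 on the minus strand and the AIM2 stretch at chr1:159076917-159076986 on the minus strand. The EPSTI1 stretch is at chr13:42992252-42992321 on the minus strand, the HLA-F stretch at chr6:29723248-29723317 on the plus strand and the OAS3 stretch at chr12:112938301-112938370 on the plus strand. The match starts 50 bases before the RefSeq start in EPSTI1 and 221 in CXCL10, the nearest and the farthest of the 6. A match is only a run of letters, and binding was not measured. CXCL10, a T cell attracting chemokine, had 1 count in each DHN library, against 15, 23 and 27 counts in the NC libraries. It was called lower, but with so few counts in DHN its fitted change is no estimate of a fold. EPSTI1, an interferon-induced epithelial-stromal interaction gene, was at 18.7, 17.8 and 18.8 CPM in the DHN libraries, against 44.4, 43.3 and 44.4 CPM in the NC libraries, a fall of 1.26 ± 0.0664. OAS3, a sensor of double-stranded RNA, was at 187, 193 and 200.1 CPM in the DHN libraries, against 384, 379.8 and 399 CPM in the NC libraries, a fall of 1.00 ± 0.0377. In all 3 genes every DHN library was below every NC library.

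Most genes of antigen presentation by MHC class I were lower. Of 17 members tested, 12 fell and 0 rose, with a median log2 change of -0.54, against 19.0% lower and 19.7% higher among all tested genes. The heavy chain HLA-B was at 408, 389.9 and 398 CPM in the DHN libraries, against 613, 612 and 653 CPM in the NC libraries, a fall of 0.65 ± 0.0383 (edgeR adjusted p = 4.68e-19), and the nonclassical HLA-F fell by 1.09 ± 0.0963. TAP1, which carries peptides into the endoplasmic reticulum, was at 79.3, 77.8 and 84.3 CPM in the DHN libraries, against 126, 125 and 132 CPM in the NC libraries, a fall of 0.66 ± 0.0482. Its neighbour PSMB9, an immunoproteasome subunit, fell by 0.75 ± 0.0982. NLRC5, the transactivator of class I genes, was at 23.5, 23.8 and 29.7 CPM in the DHN libraries, against 43.6, 38.8 and 42 CPM in the NC libraries, a fall of 0.68 ± 0.0748. The trimming peptidases ERAP1 and ERAP2 fell by 0.54 ± 0.0719 and 0.55 ± 0.041. B2M, the shared light chain, was not called, at 912, 916 and 937 CPM in DHN and 982, 981 and 958 CPM in NC (log2 change -0.08 ± 0.0364, edgeR adjusted p = 0.0841), nor was HLA-E (log2 change -0.05 ± 0.0401). HLA alleles differ from the reference sequence, so counts of the classical genes depend on how well this line's reads aligned.

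Ligands of NKG2D, the activating receptor by which natural killer cells recognise stressed cells, were mostly higher. Of 7 tested, 5 rose and 0 fell, with a median of 0.53, against 19.7% higher and 19.0% lower among all tested genes. ULBP1 (chromosome 6 from 149964007 to 149973710) was at 17.2, 14.7 and 14.8 CPM in the DHN libraries, against 3.98, 4.83 and 5.45 CPM in the NC libraries, a rise of 1.68 ± 0.12 (edgeR adjusted p = 3.14e-16). ULBP2 was at 16.8, 20.5 and 16.5 CPM in the DHN libraries, against 9.63, 10.2 and 10.1 CPM in the NC libraries, a rise of 0.85 ± 0.107. No DHN library of either gene reached down to the NC range. ULBP3 rose by 0.80 ± 0.0717, MICA by 0.44 ± 0.0532 and MICB by 0.40 ± 0.0452, while RAET1G and RAET1E were not called at low counts.

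The NF-kappaB list was divided. Of 16 members 5 rose and 7 fell. ICAM1, an adhesion molecule for leukocytes that both NF-kappaB and interferon induce, was at 91.7, 90.9 and 94.6 CPM in the DHN libraries, against 164, 161 and 173 CPM in the NC libraries, a fall of 0.84 ± 0.0435. The inhibitor NFKBIA fell by 0.36 ± 0.0394, while its relatives NFKBIB and NFKBIE rose by 0.62 ± 0.0604 and 0.42 ± 0.0663, and the deubiquitinase CYLD rose by 0.50 ± 0.0505. Of 22 cytokines 7 were higher and 5 lower, against 19.7% higher and 19.0% lower among all tested genes. CCL2, the monocyte attractant, was at 7.33, 7.1 and 7.48 CPM in the DHN libraries, against 15, 15.3 and 14.2 CPM in the NC libraries, a fall of 1.02 ± 0.12, and the granulocyte factor CSF3 fell by 1.21 ± 0.287. CLCF1, an interleukin-6 family cytokine, was at 14.4, 12.1 and 12.4 CPM in the DHN libraries, against 5.03, 7.63 and 6.04 CPM in the NC libraries, a rise of 1.04 ± 0.166. PTGS2, the inducible cyclooxygenase, rose by 0.89 ± 0.07 and GDF15, a hormone of cell stress, by 0.84 ± 0.0636.

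Death members of the BCL2 family were more often higher than lower. Of 11 tested, 7 rose and 1 fell (median 0.36), against 19.7% higher and 19.0% lower among all tested genes. Without DHN 3 only 4 of these death members were called higher. BBC3, the BH3-only protein PUMA (chromosome 19 from 47220822 to 47232766), was at 29.2, 30.2 and 35.5 CPM in the DHN libraries, against 16.1, 17.6 and 18.6 CPM in the NC libraries, a rise of 0.86 ± 0.081 (edgeR adjusted p = 2.32e-12). BCL2L11, or BIM, was at 17.2, 19.5 and 19.6 CPM in the DHN libraries, against 11.8, 8.88 and 10.3 CPM in the NC libraries, a rise of 0.88 ± 0.104. HRK, another BH3-only gene, was at 5.72, 3.72 and 4.97 CPM in the DHN libraries, against 2.73, 1.98 and 2.15 CPM in the NC libraries, a rise of 1.06 ± 0.205. All 3 had every DHN library above every NC library. The pore formers BAX and BAK1 rose by 0.26 ± 0.063 and 0.36 ± 0.0908, the call of BAK1 being lost without DHN 3 (edgeR adjusted p = 0.0519). BAD, also a BH3-only gene, fell by 0.28 ± 0.094, a call lost without DHN 1, DHN 2 or NC 3 (edgeR adjusted p = 0.0887, 0.0572 and 0.195), and PMAIP1, or NOXA, was not called (log2 change 0.05 ± 0.0338, edgeR adjusted p = 0.22). Of 5 survival members 2 fell, 1 rose and BCL2 and BCL2L1 were not called. MCL1, a short-lived guardian of mitochondria, was at 362, 350.4 and 354 CPM in the DHN libraries, against 454, 443 and 440.2 CPM in the NC libraries, a fall of 0.33 ± 0.0369, and BCL2A1 fell by 0.95 ± 0.146, whereas BCL2L2 rose by 0.28 ± 0.0634.

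The death receptor list showed a ligand and its receptors moving apart. TNFSF10, the ligand TRAIL (chromosome 3 from 172505508 to 172523507), was at 7.66, 9.1 and 8.6 CPM in the DHN libraries, against 32.8, 35.3 and 33.6 CPM in the NC libraries. Its receptor TNFRSF10B was at 195, 192 and 186 CPM in the DHN libraries, against 136, 137 and 144 CPM in the NC libraries, a rise of 0.46 ± 0.0419, and TNFRSF10A rose by 0.42 ± 0.0721. TNFRSF10D, a decoy receptor with a truncated death domain, was at 60.9, 60.1 and 66.7 CPM in the DHN libraries, against 29, 31.1 and 31.5 CPM in the NC libraries, a rise of 1.03 ± 0.0635. CFLAR, which blocks caspase-8 at these receptors, was at 48.8, 46.7 and 43.2 CPM in the DHN libraries, against 77.2, 77.8 and 70.8 CPM in the NC libraries, a fall of 0.71 ± 0.0573. In none of the 4 did the groups overlap. Over the list 4 of 11 members rose (36.4%) and 2 fell (18.2%), against 19.7% higher and 19.0% lower among all tested genes. FAS and CASP8 were not called (log2 changes 0.12 ± 0.0571 and 0.09 ± 0.0657). FAS was called higher without NC 2 (edgeR adjusted p = 0.0117).

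Most genes of the proteasome cap were slightly higher, and fewer of those of its core. For comparison, 19.7% of all tested genes were called higher and 19.0% lower. In the 19S cap, which unfolds ubiquitinated proteins, 16 of 18 members rose and 0 fell (median 0.22). In the 20S core, which cuts them, 7 of 14 rose and 0 fell (median 0.12), and 4 rose without DHN 3 or without a filter on low counts. PSMC4, a cap ATPase (chromosome 19 from 39971005 to 39981441), was at 538, 537 and 545 CPM in the DHN libraries, against 392, 378 and 384 CPM in the NC libraries, a rise of 0.49 ± 0.0353 (edgeR adjusted p = 5.4e-16). The ubiquitin receptor ADRM1 rose by 0.45 ± 0.0593. Summed over the cap, the level was 4770 to 4860 CPM in DHN and 4020 to 4110 CPM in NC. The polyubiquitin gene UBB was at 463, 461 and 421 CPM in the DHN libraries, against 316, 332 and 336 CPM in the NC libraries, a rise of 0.45 ± 0.0391. ZFAND2A, the arsenite-inducible proteasome adaptor AIRAP (chromosome 7 from 1152071 to 1160759), was at 86.9, 84.4 and 81 CPM in the DHN libraries, against 27.1, 26.6 and 28.1 CPM in the NC libraries, a rise of 1.62 ± 0.0612. Over the list of ubiquitin and p97 genes 12 of 22 rose and 2 fell, and UBE2D1, a conjugating enzyme, rose by 0.60 ± 0.0675. UBA1, the main ubiquitin-activating enzyme, fell by 0.17 ± 0.0374.

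Genes of TRiC, the ring chaperone of actin and tubulin, and prefoldin, its supplier, were more often higher than lower. Of 14 tested, 6 rose and 1 fell, against 19.7% higher and 19.0% lower among all tested genes. The risers were all TRiC subunits, led by TCP1 at 552, 559 and 539 CPM in the DHN libraries, against 389.8, 432 and 388 CPM in the NC libraries, a rise of 0.45 ± 0.0381, while the prefoldin subunit PFDN1 fell by 0.14 ± 0.0537, a call lost without DHN 2, NC 2 or NC 3. Of 27 autophagy genes 10 rose (37.0%) and 5 fell (18.5%), the share lower being near the 19.0% of all tested genes. GABARAPL1 and MAP1LC3B, which coat the autophagosome, were at 108, 103 and 118 CPM in DHN and 61.4, 55.7 and 62.2 CPM in NC and at 68.3, 66.6 and 65.7 CPM in DHN and 38.9, 40.9 and 37 CPM in NC. They rose by 0.88 ± 0.0529 and 0.78 ± 0.0583, whereas ATG7, the enzyme that activates them, fell by 0.54 ± 0.0778. Lysosomal genes were divided, 10 of 28 higher and 9 lower, against 19.7% higher and 19.0% lower among all tested genes. GLA, alpha-galactosidase A, was at 82.1, 82.8 and 80.4 CPM in the DHN libraries, against 41.4, 41.9 and 45.5 CPM in the NC libraries, a rise of 0.93 ± 0.0579, and TFEB, the factor that activates lysosomal genes, rose by 0.44 ± 0.112. NPC1, the cholesterol exporter, fell by 0.44 ± 0.039.

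Most host genes of small nucleolar RNAs were higher. These genes carry the RNAs in their introns, and most of their spliced transcripts are removed by decay during translation. Of 19 tested, 14 rose and 0 fell, with a median of 0.52, against 19.7% of all genes called higher. SNHG12 (chromosome 1 from 28578538 to 28583132) was at 62.5, 64 and 60.7 CPM in the DHN libraries, against 27.1, 29.9 and 30.9 CPM in the NC libraries, a rise of 1.08 ± 0.0744 (edgeR adjusted p = 5.43e-14). SNHG1 was at 15.6, 15.7 and 15.5 CPM in the DHN libraries, against 9.01, 8.59 and 9.21 CPM in the NC libraries, a rise of 0.80 ± 0.101. GAS5 (chromosome 1 from 173863900 to 173868882) was at 55.6, 55.2 and 56.5 CPM in the DHN libraries, against 40.6, 36 and 40.1 CPM in the NC libraries, a rise of 0.52 ± 0.0605. The groups did not overlap in any of these. SNHG7, SNHG8 and SNHG17 rose by 1.05 ± 0.0961, 1.05 ± 0.189 and 0.87 ± 0.0708.

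The promoter of GAS5 is shown with those of HSPA6, a chaperone gene, and CHORDC1, an HSP90 cochaperone gene, because all hold the heat shock element trimer, to which heat shock factors bind. The trimer stood on either strand in 27 of the 8185 promoters (0.33%), in 3 of the 184 genes called at least 2-fold higher (1.63%) and in 8 of the 1757 called higher by less (0.455%). The 3 at 2-fold or more were HSPA6, FBXW10 and LINC00862 (log2 changes 6.86, 3.48 and 2.41), of which only HSPA6 is shown. CHORDC1 and GAS5 rose by less than 2-fold, so the stretches shown do not stand for those 3. It stood in 4 of the 1702 called lower by less than 2-fold (0.235%) and in 0 of the 72 at 2-fold or more. Capitals mark the trimer letters on the strand of the gene.
HSPA6: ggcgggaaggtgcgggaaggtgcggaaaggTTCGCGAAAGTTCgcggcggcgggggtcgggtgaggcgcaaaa
CHORDC1: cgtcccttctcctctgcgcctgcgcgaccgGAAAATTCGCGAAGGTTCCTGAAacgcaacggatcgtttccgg
GAS5: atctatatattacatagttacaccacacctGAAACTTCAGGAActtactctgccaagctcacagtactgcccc
They lie at chr1:161524436-161524508 on the plus strand, chr11:90223067-90223139 on the minus strand and chr1:173869193-173869265 on the minus strand, and the match starts 74, 60 and 190 bases before the start. CHORDC1, chosen after its values were seen, was at 179.7, 186 and 176 CPM in the DHN libraries, against 94.3, 93.7 and 91.5 CPM in the NC libraries, a rise of 0.96 ± 0.0442. Genes with the trimer also fell, among them IFT172, an intraflagellar transport gene chosen after its values were seen, by 0.44 ± 0.0728. The AP-1 letters TGANTCA, the cyclic AMP response element TGACGTCA and the antioxidant response element core TGACNNNGC were in 6.52%, 1.63% and 16.3% of the 184 promoters. Over all 8185 they were in 4.79%, 3.51% and 15.4%.

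Ribosome assembly genes were more often higher than lower. Of 40 tested, 25 rose and 1 fell (median 0.19), against 19.7% higher and 19.0% lower among all tested genes. NOP56, a core protein of box C/D particles, was at 382, 386 and 355 CPM in the DHN libraries, against 260.3, 266 and 253 CPM in the NC libraries, a rise of 0.53 ± 0.0379 (edgeR adjusted p = 5.37e-16), and NOLC1, which ferries the particles, rose by 0.54 ± 0.04. MYC, a driver of ribosome production, was at 106, 108 and 103 CPM in the DHN libraries, against 68.2, 71.7 and 70.8 CPM in the NC libraries, a rise of 0.59 ± 0.0456. RRN3, the initiation factor of RNA polymerase I, rose by 0.58 ± 0.0574. Of 75 ribosomal proteins themselves 24 rose and 4 fell with a median of 0.09. Without NC 1 or NC 2 only 12 or 13 were called higher, and without NC 3 only 2 lower. RPL13A rose by 0.20 ± 0.0402 and RPL3 fell by 0.14 ± 0.0354.

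Respiratory chain genes were more often lower than higher, and most mitochondrial ribosomal protein genes were not called. Of 49 nuclear genes of the respiratory chain and ATP synthase, 18 fell and 4 rose (median -0.12). SDHA, a succinate dehydrogenase subunit, was at 14.8, 14.2 and 14.4 CPM in the DHN libraries, against 17.5, 19.1 and 19.2 CPM in the NC libraries, a fall of 0.37 ± 0.0888, and NDUFV1 fell by 0.36 ± 0.0558. NDUFV2 went the other way by 1.35 ± 0.331, but it was counted at only 2.1, 2.38 and 3.21 CPM in DHN and 1.24, 0.917 and 0.929 CPM in NC. Of 13 genes encoded in mitochondrial DNA 8 fell and 2 rose, and without NC 2 the number lower was 5. MT-CO2 was at 2097, 2084 and 1896 CPM in the DHN libraries, against 2455, 2617 and 2548 CPM in the NC libraries, a fall of 0.33 ± 0.0414. MT-ND1 was at 1503, 1448 and 1322 CPM in the DHN libraries, against 1160, 1180 and 1123 CPM in the NC libraries, a rise of 0.30 ± 0.043, so that transcripts cut from the same precursor moved apart. Of 75 mitochondrial ribosomal proteins 12 rose and 10 fell, smaller shares than the 19.7% and 19.0% of all tested genes, and without DHN 1 or NC 1 the number higher was 7 or 6. MRPL18 (chromosome 6 from 159789812 to 159798436) stood out of this list at 172, 170.0 and 172 CPM in the DHN libraries, against 76.6, 80.9 and 76.5 CPM in the NC libraries, a rise of 1.14 ± 0.0464 (edgeR adjusted p = 6.29e-25). It lies head to head with TCP1, which rose too.

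**Figure D3:**
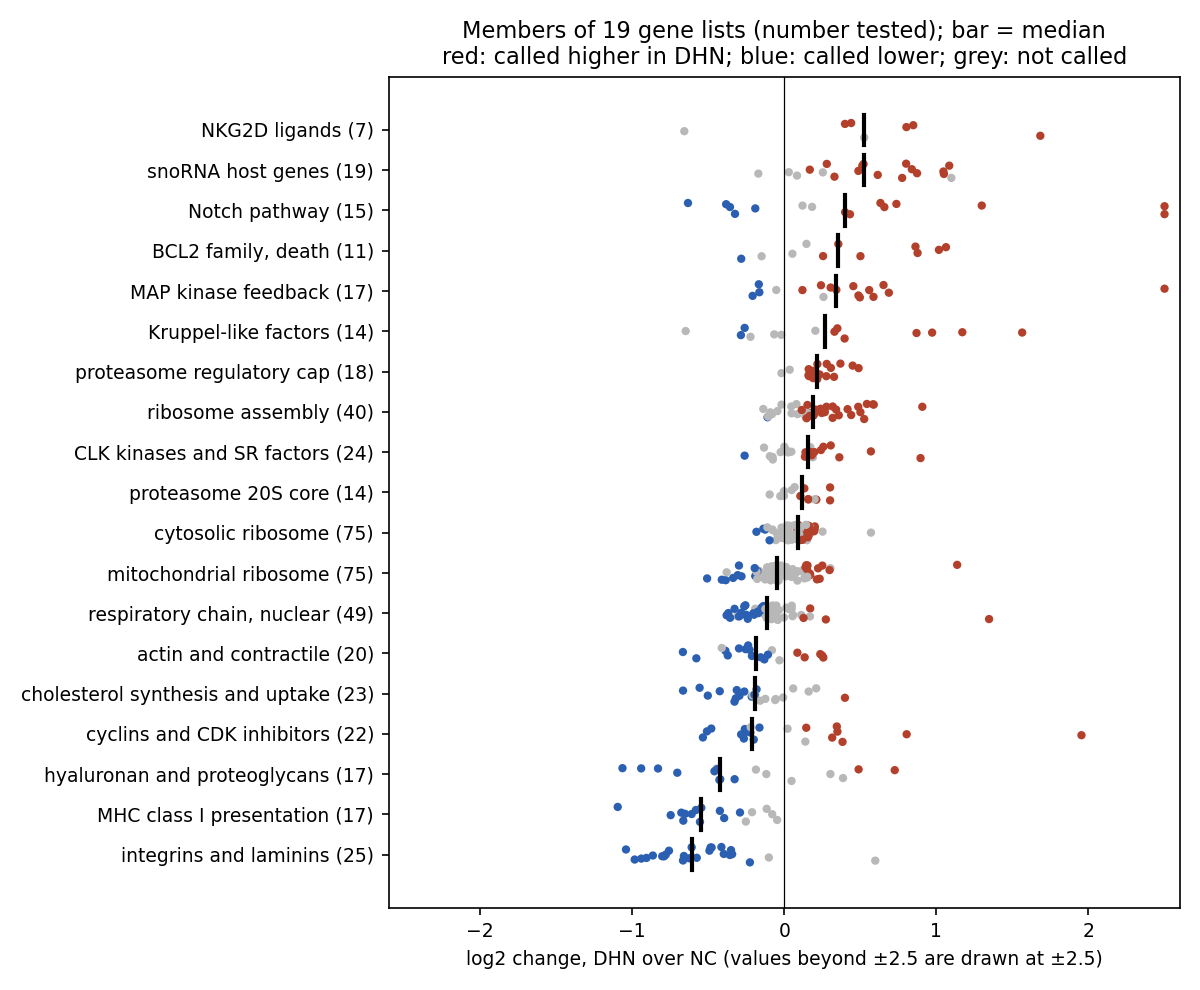
Log2 change (DHN over NC, horizontal axis) of each tested member of 19 gene lists, 1 point a gene, red where called higher, blue where called lower and grey where not called, with a black bar at the list's median. The medians run from -0.61 for integrins and laminins to 0.53 for NKG2D ligands, and the proteasome and ribosome lists lie close to 0.

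Genes of splicing control and RNA decay rose more often than they fell. Of 24 CLK kinases and SR factors 12 rose and 1 fell, against 19.7% higher and 19.0% lower among all tested genes. CLK1, a kinase that releases SR proteins and whose own RNA is held partly spliced until stress (chromosome 2 from 200853009 to 200864744), was at 94.3, 85.4 and 80.6 CPM in the DHN libraries, against 47.5, 47 and 44.9 CPM in the NC libraries, a rise of 0.90 ± 0.0558 (edgeR adjusted p = 3.44e-18). SRSF6 rose by 0.57 ± 0.0547 and TRA2B by 0.36 ± 0.0375, and SRSF9 fell by 0.26 ± 0.046. Of 16 decay factors 11 rose and 3 fell, the share lower (18.8%) being near that of all tested genes. The number lower was 1 when any 1 DHN library, NC 2 or DHN-A 3 was left out. BTG2, an antiproliferative activator of deadenylation, was at 14.2, 11.3 and 13.7 CPM in the DHN libraries, against 5.28, 5.6 and 5.07 CPM in the NC libraries, a rise of 1.29 ± 0.124. ZFP36, or tristetraprolin, which destroys AU-rich messages, was at 52.5, 48.4 and 56.4 CPM in the DHN libraries, against 26.4, 29.7 and 29.1 CPM in the NC libraries, a rise of 0.88 ± 0.0678. The exonuclease XRN1 fell by 0.37 ± 0.0452.

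Zinc finger genes with ZNF symbols, a class examined after the values were seen, were mostly higher where called. These genes mostly encode KRAB repressors of transposons, and many stand in clusters on chromosome 19. Of 219 tested on that chromosome 115 rose (52.5%) and 2 fell (0.913%), with a median of 0.302, and of 232 elsewhere 105 rose (45.3%) and 20 fell (8.62%), with a median of 0.202. The other 800 protein-coding genes of chromosome 19 had 24.6% higher and 21.9% lower, close to the 23.9% and 23.5% of all 13310 protein-coding genes. ZNF473, which takes part in histone pre-mRNA processing, was at 62, 66.7 and 67.5 CPM in the DHN libraries, against 30.6, 27.5 and 30.8 CPM in the NC libraries, a rise of 1.15 ± 0.0653. ZNF222, of the same chromosome, was at 11.4, 11.2 and 9.02 CPM in the DHN libraries, against 3.42, 3.28 and 4.61 CPM in the NC libraries, a rise of 1.46 ± 0.156. The pair that fell on chromosome 19 was ZNF114 (by 1.11 ± 0.102) and ZNF83 (by 0.26 ± 0.0654). Members of a cluster resemble each other, so reads can be shared between them.

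Gene span went with the direction of change, in another division made after the values were seen. Protein-coding genes were divided into 5 equal groups by span. Among those with the longest spans, 99.3 to 2240 kb, 32.3% fell and 17.3% rose. In the 2 groups from 10.7 to 46.3 kb, 19.8% and 22.3% fell while 27.9% and 27.8% rose. The median log2 change was -0.071 in the group of longest spans and 0.016 in that of shortest spans. From the shortest to the longest spans the median levels were 16.1, 26.4, 34.0, 33.7 and 32.9 CPM. The power to call a gene was thus not equal in all groups, and the part of level in these shares was not tested.

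**Figure D4:**
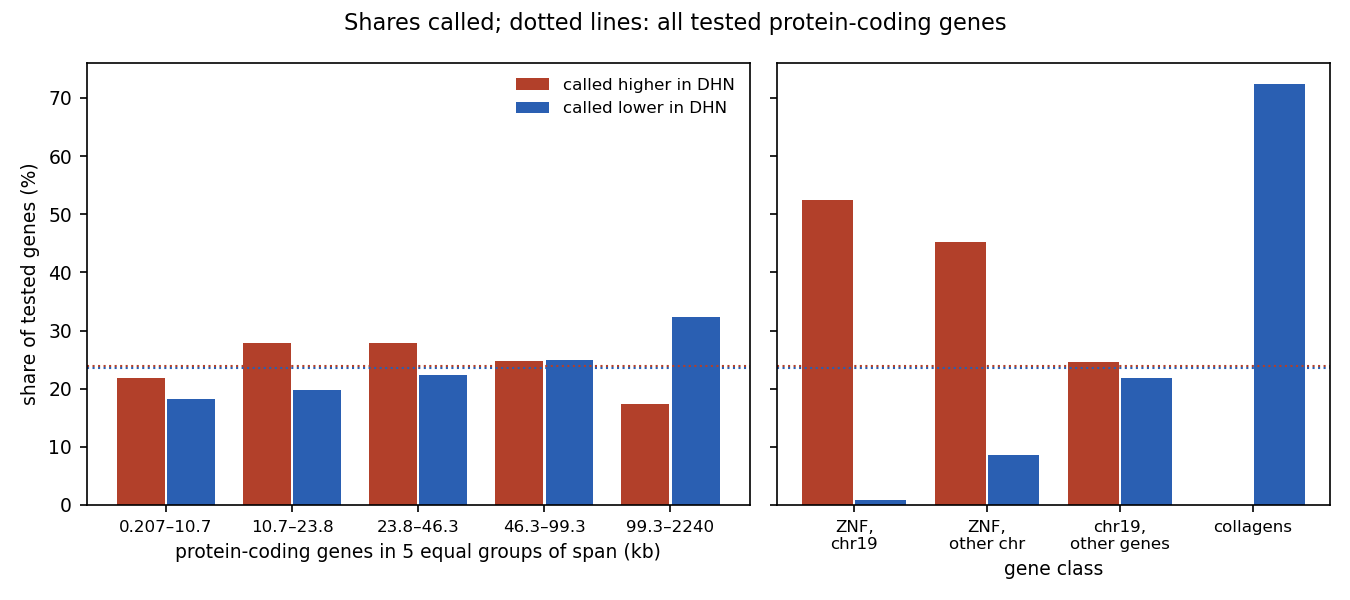
Shares of tested protein-coding genes called higher (red) and lower (blue) in DHN, in 5 equal groups of gene span in kb (left) and for 4 classes chosen after the values were seen (right), with dotted lines at the shares of all tested protein-coding genes. The longest-span group has 32.3% lower and 17.3% higher, ZNF genes of chromosome 19 have 52.5% higher, and 72.4% of the 29 collagens are lower with none higher.

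Transcripts of extracellular matrix genes and of their receptors fell broadly. Of 25 integrins and laminins tested, 23 fell and 0 rose (median -0.61), against 19.0% lower and 19.7% higher among all tested genes. Of the 25 members 10 are in the longest of 5 equal groups of gene span. LAMA5, a laminin chain of basement membranes (chromosome 20 from 62307955 to 62367312), was at 60.8, 62.3 and 68 CPM in the DHN libraries, against 132, 108 and 129 CPM in the NC libraries, a fall of 0.94 ± 0.0582. ITGB1, the partner of most integrin alpha chains (chromosome 10 from 32900319 to 33005792), was at 1399, 1372 and 1343 CPM in the DHN libraries, against 1921, 2005 and 1858 CPM in the NC libraries, a fall of 0.49 ± 0.0331 (edgeR adjusted p = 4.86e-17). LAMC1, the gamma chain of most laminins, was at 383, 371 and 363 CPM in the DHN libraries, against 517, 482 and 488 CPM in the NC libraries, a fall of 0.41 ± 0.0366. ITGA6 and ITGA3, laminin receptor chains, fell by 0.66 ± 0.0411 and 0.67 ± 0.0337. Only ITGB4 and LAMA2 of the tested members were not called. Collagens, a class examined after the values were seen, had 21 of 29 lower and 0 higher (median -0.681). COL18A1, a basement membrane collagen that yields endostatin, was at 209, 200.4 and 234 CPM in the DHN libraries, against 486, 426 and 497 CPM in the NC libraries, a fall of 1.13 ± 0.0934. The capsule collagens COL4A1 and COL4A2 fell by 0.67 ± 0.0422 and 0.93 ± 0.0671, and COL5A2, of fibrillar collagen V, by 1.00 ± 0.0393.

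Proteoglycans followed, with 9 of 17 lower and 2 higher (median -0.42), against 19.0% lower and 19.7% higher among all tested genes. AGRN, agrin, was at 106, 107 and 112 CPM in the DHN libraries, against 236, 205 and 239 CPM in the NC libraries, a fall of 1.06 ± 0.0472, and HSPG2, perlecan, was at 146, 153 and 152 CPM in the DHN libraries, against 298, 273 and 295 CPM in the NC libraries, a fall of 0.94 ± 0.0401. Both are heparan sulfate proteoglycans of basement membranes. CD44, the hyaluronan receptor, fell by 0.43 ± 0.0331 and the hyaluronan synthase HAS2 by 0.70 ± 0.186, while CEMIP2, a surface hyaluronidase, rose by 0.73 ± 0.0636. Of 31 proteases and inhibitors 15 fell and 7 rose. PLAT, tissue plasminogen activator, was at 68.3, 75 and 73.2 CPM in the DHN libraries, against 139, 150.1 and 152 CPM in the NC libraries, a fall of 1.02 ± 0.0467. The interstitial collagenase MMP1 was at 2.82, 4.19 and 3.3 CPM in the DHN libraries, against 0.249, 0.386 and 0.296 CPM in the NC libraries, a rise of 3.44 ± 0.374, and its neighbours MMP3 and MMP10 rose by 2.12 ± 0.49 and 3.44 ± 0.6 at low levels. Contractile genes were mostly lower (12 of 20, with 5 higher), among them MYLK, myosin light chain kinase, by 0.67 ± 0.0429 and FLNA, filamin A, by 0.39 ± 0.0342. Without DHN 3 or NC 1 the number higher was 3.

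Most feedback genes of the MAP kinase pathway were higher, and the EGF family was divided. Of 17 phosphatases, Sprouty and SPRED genes and ERRFI1, 12 rose and 3 fell (median 0.34), against 19.7% and 19.0% of all tested genes. The falls were in DUSP6, SPRED1 and SPRED2 (by 0.21 ± 0.0515, 0.16 ± 0.0532 and 0.17 ± 0.0597). The calls of SPRED1 (without DHN 1) and SPRED2 (without DHN 2, DHN 3 or NC 1) were lost when single libraries were left out. After DUSP2 the highest rises were those of DUSP8 (0.69 ± 0.159) and DUSP5 (0.65 ± 0.0457). HBEGF, a ligand of the EGF receptor (chromosome 5 from 140332843 to 140346631), was at 58.8, 58.9 and 59 CPM in the DHN libraries, against 22.1, 19.4 and 21.1 CPM in the NC libraries, a 2.83-fold rise (edgeR adjusted p = 2.38e-23). In the EGF family, 3 of 9 members rose and 3 fell. The ligand AREG rose by 0.74 ± 0.195, while BTC fell by 1.06 ± 0.307, a call lost without DHN 3 (edgeR adjusted p = 0.0631), and the receptors EGFR and ERBB2 fell by 0.33 ± 0.0377 and 0.45 ± 0.0526. Of 14 Kruppel-like factors 7 rose and 2 fell. KLF4, a regulator of epithelial differentiation, was at 52.6, 51.6 and 51.8 CPM in the DHN libraries, against 21.9, 23.3 and 23.9 CPM in the NC libraries, a rise of 1.17 ± 0.0708, and KLF5 and KLF10 rose by 0.97 ± 0.0832 and 0.87 ± 0.0404.

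In the Notch pathway 8 of 15 tested genes rose and 5 fell (median 0.40), against 19.7% and 19.0% of all tested genes. The ligand DLL4 was at 1.69, 1.57 and 2.32 CPM in the DHN libraries, against 0.373, 0.0483 and 0.211 CPM in the NC libraries, a rise of 3.19 ± 0.518 from counts near the detection limit. The target HES1 was at 37, 39.5 and 40.2 CPM in the DHN libraries, against 26.2, 24.6 and 23.6 CPM in the NC libraries, a rise of 0.66 ± 0.0683, and the targets HEY1 and NRARP rose by 1.30 ± 0.28 and 0.74 ± 0.175. The receptor NOTCH1 rose by 0.40 ± 0.0464, whereas NOTCH2 and NOTCH3 fell by 0.32 ± 0.0371 and 0.63 ± 0.089. Without DHN 1, DHN 2, NC 2, NC 3, NC-A 2, NC-A 3 or any 1 DHN-A library, 3 were called lower.

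Of 27 genes of the TGF-beta and BMP pathways 9 rose and 10 fell, against 19.7% higher and 19.0% lower among all tested genes. Among the rises were BMP6, at 3.87, 4.77 and 4.37 CPM in DHN and 1.49, 0.869 and 1.01 CPM in NC (1.98 ± 0.251), and ID2, an inhibitor of differentiation that BMPs induce, at 28, 30.7 and 30 CPM in DHN and 11.8, 16.1 and 13.3 CPM in NC (1.10 ± 0.095). BMP4, at 2.42, 2.34 and 2.23 CPM in DHN and 0.684, 0.724 and 0.0845 CPM in NC, rose by 2.28 ± 0.419. The falls were in latent TGF-beta binding proteins LTBP1 and LTBP2 (by 0.85 ± 0.0408 and 0.76 ± 0.0449), the BMP antagonist NOG (by 0.66 ± 0.09) and the receptors TGFBR1 and TGFBR2 (by 0.31 ± 0.061 and 0.33 ± 0.0414). In the Wnt pathway 10 of 28 fell and 5 rose, the share higher (17.9%) being near that of all tested genes. SFRP1, a secreted antagonist, was lower by 0.80 ± 0.0398. The feedback inhibitor NKD1 was higher by 1.61 ± 0.491 at a low level, a call lost without DHN 2 (edgeR adjusted p = 0.0617). Of 17 clock genes 7 rose and 3 fell, the share lower (17.6%) being near that of all tested genes. PER1 and PER2 rose by 0.69 ± 0.0868 and 0.71 ± 0.164, and the receptor RORA fell by 0.59 ± 0.124. Ephrins and their receptors were divided (5 higher and 4 lower of 15), EPHB3 rising by 0.85 ± 0.108 and EPHB1 falling by 0.90 ± 0.148. Of the 19 YAP and TEAD targets 8 rose and 6 fell.

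Transcripts of sterol and fatty acid synthesis genes were lower in part. Of 23 tested cholesterol genes 12 fell and 1 rose (median -0.19), against 19.0% lower and 19.7% higher among all tested genes. LSS, lanosterol synthase, which is also a gene of inherited cataract (chromosome 21 from 46188141 to 46228824), was at 66.7, 60.1 and 65.7 CPM in the DHN libraries, against 104, 92.9 and 107 CPM in the NC libraries, a fall of 0.66 ± 0.0515 (edgeR adjusted p = 5.49e-15). The exception was HMGCS1, the synthase at the head of the pathway, at 53.8, 57.1 and 47.7 CPM in the DHN libraries, against 38.5, 44.1 and 37.4 CPM in the NC libraries, a rise of 0.40 ± 0.0692. SCD, the stearoyl desaturase, was at 87.7, 87.4 and 91.4 CPM in the DHN libraries, against 148, 154 and 148 CPM in the NC libraries, a fall of 0.76 ± 0.0429. In the fatty acid list 6 of 12 fell and 2 rose.

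In other metabolic groups the directions were mixed. For comparison, 19.7% of all tested genes were called higher and 19.0% lower. TXNIP, the thioredoxin-binding arrestin that limits glucose uptake, was at 36.8, 38.9 and 39.9 CPM in the DHN libraries, against 65.3, 75 and 68.3 CPM in the NC libraries, a fall of 0.85 ± 0.0606, while its relatives ARRDC2, ARRDC3 and ARRDC4 rose by 0.34 ± 0.0785, 0.31 ± 0.0848 and 0.41 ± 0.123. Polyamine genes had 5 of 10 higher and 1 lower. SAT1, the acetyltransferase that starts polyamine breakdown, was at 253, 252 and 235 CPM in the DHN libraries, against 156, 157 and 149.6 CPM in the NC libraries, a rise of 0.67 ± 0.0431, ODC1 rose by 0.43 ± 0.0421, and the spermine synthase SMS fell by 0.57 ± 0.0391. The inositol transporter SLC5A3, which the lens uses against osmotic stress, was at 264, 267 and 251 CPM in the DHN libraries, against 368, 369.6 and 351 CPM in the NC libraries, a fall of 0.48 ± 0.0401. In that list 3 of 9 fell and 0 rose. Of 10 metallothionein and zinc genes 3 rose and 3 fell. The metallothionein MT2A was at 136, 128 and 149.6 CPM in the DHN libraries, against 179, 193 and 207 CPM in the NC libraries, a fall of 0.49 ± 0.128 that was not called without DHN 2 or NC 3 (edgeR adjusted p = 0.064 and 0.0613), and MT1E fell by 0.59 ± 0.0838, whereas the zinc exporter SLC30A1 rose by 0.40 ± 0.057.

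Enzymes that remove peroxide and superoxide were divided. For comparison, 19.7% of all tested genes were called higher and 19.0% lower. The cytosolic SOD1 was at 665, 606 and 645 CPM in the DHN libraries, against 449, 436 and 437 CPM in the NC libraries, a rise of 0.54 ± 0.04, and PRDX1 rose by 0.48 ± 0.0653. The mitochondrial SOD2 was at 273, 264 and 260.3 CPM in the DHN libraries, against 371, 394 and 364 CPM in the NC libraries, a fall of 0.50 ± 0.0379, and the mitochondrial PRDX3 fell by 0.25 ± 0.0459. PRDX4, of the endoplasmic reticulum, and the cytosolic PRDX2 fell by 0.21 ± 0.0471 and 0.23 ± 0.0608. Over the list 3 of 14 rose and 6 fell, and CAT and GPX4 were not called (log2 change of GPX4 0.12 ± 0.0488), although GPX4 was called higher without NC 3 or NC-A 1 (edgeR adjusted p = 0.00283 and 0.0191) and in a fit of DHN and NC alone (adjusted p = 0.0441).

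B cyclins were lower and E cyclins higher. Of 22 cyclins and CDK inhibitors 12 fell and 7 rose (median -0.21). The mitotic cyclin CCNB1 was at 162, 153 and 149 CPM in the DHN libraries, against 211, 218 and 217 CPM in the NC libraries, a fall of 0.48 ± 0.041, and CCNB2 fell by 0.53 ± 0.0592. The G1/S cyclin CCNE1 was at 175, 176 and 179.7 CPM in the DHN libraries, against 136, 132 and 138 CPM in the NC libraries, a rise of 0.38 ± 0.0419, and CCNE2 rose by 0.35 ± 0.0649. CDKN1C, the inhibitor p57, was at 5.96, 5.72 and 5.11 CPM in the DHN libraries, against 2.3, 1.01 and 1.14 CPM in the NC libraries, a rise of 1.95 ± 0.242, and CCND1 fell by 0.28 ± 0.0346. DNA replication had 16 of 46 higher and 10 lower, the number lower being near the 19.0% of all tested genes. The loading factor CDC6 was at 114, 111 and 111 CPM in the DHN libraries, against 67.4, 66.6 and 64.8 CPM in the NC libraries, a rise of 0.75 ± 0.0496 (edgeR adjusted p = 2.4e-17), and CDT1 rose by 0.53 ± 0.0474, while the polymerase subunit POLD1 fell by 0.38 ± 0.0473. Homologous recombination and Fanconi genes had 5 higher and 6 lower of 31, near the 19.7% and 19.0% of all tested genes. Histone genes, whose transcripts mostly lack poly(A) tails, had 3 higher and 3 lower of 28. Without DHN 3 or NC 2 only 1 was called higher, and without DHN 1, NC 2 or NC 3 only 1 lower. In bulk RNA a smaller share of cells in a phase and less RNA per cell cannot be told apart.

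Most genes of lens fibre cells were near 0 in both groups. Of 28 lens markers 9 had enough counts for a test, of which 3 rose and 1 fell, and the crystallins CRYGC and CRYGD had 0 counts in all 6 libraries. CRYAA had 2, 0 and 0 counts in DHN and 0, 0 and 2 in NC. The summed level of the 28 was 174 to 185 CPM in DHN and 176 to 186 CPM in NC, most of it from GJA1, connexin 43, which is not particular to the lens. PAX6, the master gene of eye development, was at 30.9, 29.8 and 28.8 CPM in the DHN libraries, against 25.5, 24.1 and 26 CPM in the NC libraries, a rise of 0.24 ± 0.0721. PROX1, a factor of fibre differentiation, was at 0.967, 1.43 and 1.16 CPM in the DHN libraries, against 0.311, 0.434 and 0.127 CPM in the NC libraries, a rise of 2.06 ± 0.505. SIX3 was not called (log2 change -0.21 ± 0.102, edgeR adjusted p = 0.102, or 0.0424 without NC 3). Among genes of inherited cataract 5 of 20 tested rose and 9 fell, against 19.7% and 19.0% of all tested genes. The largest change in both lists was the rise of the small heat shock protein CRYAB by 3.87 ± 0.226, and FTL, ferritin light chain, rose by 0.88 ± 0.0369. FYCO1, an adaptor of autophagosome transport, fell by 0.54 ± 0.0553, VIM, vimentin, by 0.52 ± 0.0315, and NHS by 0.45 ± 0.0821.

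Markers of other cell types differed between lists in level and direction. Fibroblast markers had 6 of 8 lower and 0 higher, against 19.0% lower and 19.7% higher among all tested genes. Their summed level was 967 to 1030 CPM in DHN and 1670 to 1760 CPM in NC, mostly from collagen I. The list holds COL1A1, COL1A2, COL3A1 and COL6A3, so it is not separate from the collagens above. The part of fibroblast markers in the matrix changes was not tested. Of 10 markers each, 3 of immune cells, 3 of keratinocytes, 5 of pigment cells and 6 of endothelium were tested. The summed levels of the first 3 lists were 14.6 to 17.6, 70.9 to 77.1 and 9.85 to 11 CPM in DHN. In NC they were 20.5 to 21.8, 58.6 to 66.1 and 8.83 to 11.6 CPM, and KRT1 had 0 counts in all 6 libraries. Endothelial markers summed to at most 214 CPM in DHN and to at least 259 CPM in NC.

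More symbols were detected in the DHN libraries than in the NC libraries. At an equal depth of 12381071 counts the DHN libraries held an expected 27206, 27663 and 27768 symbols with a count, against 25668, 26495 and 26304 in the NC libraries. No DHN library reached down to the NC range, and the two-sided exact permutation p was 0.1, the smallest that 3 against 3 can give. The 100 most abundant symbols held 16.93% to 17.23% of counts in DHN and 18.73% to 18.77% in NC. The part of that difference in detection was not tested. Protein-coding symbols numbered 15583 ± 72.6 in DHN and 15079 ± 71.8 in NC (mean ± SD, n = 3 each), and pseudogenes 4189 ± 103 in DHN and 3911 ± 58.1 in NC. A set of 75 symbols (of 60641 in all), 44 of them protein-coding, had more than 3 counts in every DHN library and at most 3 counts over the NC libraries together. The reverse held for 20 symbols, 6 of them protein-coding. Among the 75 were FOXJ1, the factor of motile cilia, with 9, 24 and 12 counts in DHN and 1, 0 and 0 in NC, and EDN2, an endothelin, with 11, 12 and 30 counts in DHN and 1, 0 and 1 in NC. CA2, a carbonic anhydrase, had 11, 14 and 17 counts in DHN and 0, 0 and 1 in NC. These genes were chosen after their values were seen, and their levels stayed near 1 CPM.

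With asparagine present, the same treatment moved far fewer genes. DHN-A over NC-A, which shares no library with DHN over NC, gave 375 calls (2.1%), 144 higher (0.805%) and 231 lower (1.29%). Of these, 229 were called the same way without asparagine (61.1% of the 375 and 3.31% of the 6919), and 42 the other way. Without NC-A 1 the calls were 288 of 18527 genes (1.55%), 171 of them called the same way and 42 the other way. The difference between the responses, tested as an interaction, was called for 4592 genes (25.7%), and it shares the DHN and NC libraries with the comparison above. ALOXE3 changed by 0.02 ± 0.174 with asparagine, an interaction of -3.42 ± 0.248 (edgeR adjusted p = 3.65e-15). ULBP1 changed by -0.05 ± 0.109, an interaction of -1.73 ± 0.163 (adjusted p = 7.69e-12), and SNHG12 by 0.01 ± 0.0762, an interaction of -1.07 ± 0.107 (adjusted p = 1.32e-09). None of these 3 genes was called with asparagine. Other large rises were smaller but still called with it (edgeR adjusted p under 0.05). HSPA6 changed by 1.77 ± 0.11 with asparagine and ARC by 2.15 ± 0.19, with interactions of -5.09 ± 0.183 and -3.90 ± 0.323 (adjusted p = 5.54e-26 and 2.01e-13). HSPA1A changed by 2.09 ± 0.178 and CRYAB by 1.81 ± 0.24, with interactions of -2.97 ± 0.277 and -2.06 ± 0.365 (adjusted p = 1.41e-11 and 1.79e-05). PPFIA4 and PDK1 were lower in both settings, changing by -1.13 ± 0.13 and -0.90 ± 0.0878 with asparagine. Their interactions were 1.06 ± 0.184 and 0.48 ± 0.124 (edgeR adjusted p = 1.22e-05 and 0.00263). Mean levels of PPFIA4 were 4.3 CPM in DHN, 4.76 in DHN-A, 20.08 in NC and 10.45 in NC-A. For PDK1 they were 12.37, 12.1, 32.3 and 22.56 CPM. In both genes the treated levels were close, and the untreated level was lower with asparagine, a difference that was not tested. IL4I1 changed by -0.12 ± 0.0714 with asparagine, an interaction of 1.33 ± 0.107 (adjusted p = 7.15e-14).

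**Figure D5:**
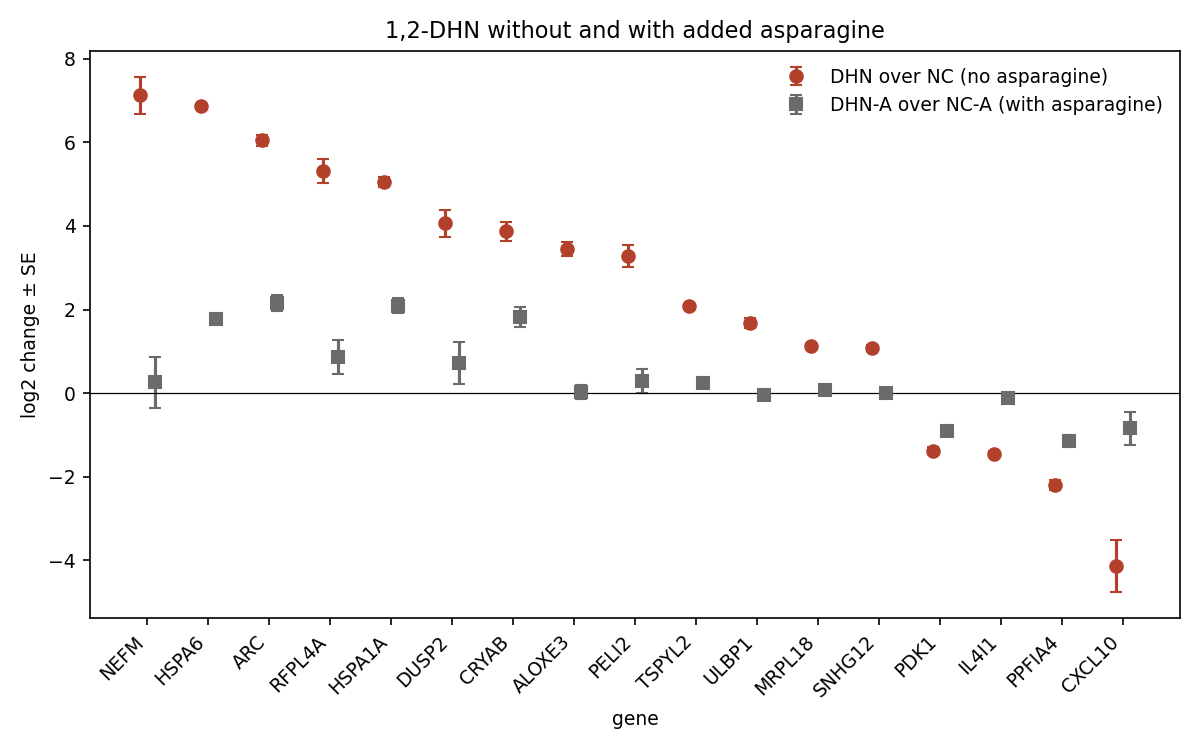
Log2 change ± SE of 17 genes for DHN over NC (red circles) and for DHN-A over NC-A (grey squares). Of the 13 genes shown that rose without asparagine, HSPA6, ARC, HSPA1A and CRYAB lie between 1.77 and 2.15 with it and the other 9 between 0.85 (RFPL4A) and -0.05 (ULBP1). The 4 that fell, PDK1, IL4I1, PPFIA4 and CXCL10, have values below zero in both.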

How the data were processed

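RNA was made into stranded libraries and sequenced, per the labels' protocols. The authors deposited whole-number read counts per gene symbol for 12 libraries. Reads were aligned with Bowtie to hg38, per the submitters' processing notes. The aligner version, counting tool, strand setting and annotation are not given in the sources used, so reads of overlapping or antisense genes cannot be assigned with certainty, and neither can reads of near-identical copies. Of 60641 symbols, 42752 (17451 of them without a count) did not pass edgeR's filter on low counts, which left 17889. A quasi-likelihood model (edgeR 4.0.16, R 4.3.3) with trimmed mean of M values scaling was fitted to all 12 libraries with 1 mean per group. The comparisons were DHN over NC, DHN-A over NC-A and their interaction, and p-values were adjusted over all tested genes by the Benjamini-Hochberg method. The procedure was tested on simulated data. CPM was computed from the counts and the scaled library sizes. Coordinates come from GENCODE release 29 by symbol and promoters from RefSeq (GRCh38.p14). The counts at equal depth are the expected number of symbols with at least 1 count, with scipy 1.17.1 for the exact test.

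The members and the 54 gene lists (1070 of 1209 memberships tested) were chosen with earlier results of these data known; core histones were taken by symbol family. The rule for naming took the 20 genes that rose and the 20 that fell most, if called, without overlap between groups and averaging 50 counts or more. It added, for each list, up to 6 called members with the largest changes, the 4 with the smallest p and the 2 at the highest level per length, and lists of up to 15 tested members in full. Placeholder names were left out, and a few genes that the rule names are not reported here. Genes named beyond it were chosen after their values were seen: ADAMTSL1, B2M, CCNE2, CHORDC1, the collagens other than those of the rule, CXCL10, DUSP6, ERAP1, FAM162A, FBXW10, GAS5, HLA-E, IFT172, ITGA6, ITGB4, LAMA2, LAMC1, LINC00862, NOG, OAS3, PCDHB15, RPL3, SPRED1, SPRED2, TGFBR1, TGFBR2, TSPYL2, UBA1 and the ZNF genes.

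The settings varied were the scaling (relative log expression), the tool (DESeq2 1.42.0, limma-voom from limma 3.58.1), the filter (none), the null (a 2-fold minimum by glmTreat), a block for the replicate number, the samples fitted (DHN and NC alone), and leaving out single libraries.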

Additional observations from a re-analysis of the deposited data

Results flagged for a closer look

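The response to 1,2-DHN differed with asparagine for 4592 genes by the interaction test (edgeR, adjusted p under 0.05). Among the genes whose interaction the report gives, the log2 interaction, DHN-A over NC-A minus DHN over NC, was -5.09 for HSPA6, -3.90 for ARC, -3.42 for ALOXE3, -2.97 for HSPA1A, -2.06 for CRYAB, -1.73 for ULBP1 and -1.07 for SNHG12, which rose without asparagine. It was 1.33 for IL4I1, 1.06 for PPFIA4 and 0.48 for PDK1, which fell without asparagine. All 10 are differences between the responses that passed this test.

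Among symbols with too few counts to be tested, 64 had more than 3 counts in each DHN library and at most 3 counts over the NC libraries. They include NPPC, the precursor of C-type natriuretic peptide, with 10, 23 and 9 counts in DHN and 1, 1 and 0 in NC, and CNTFR, the receptor of ciliary neurotrophic factor, with 19, 5 and 18 counts in DHN and 1, 1 and 0 in NC. The reverse pattern was seen in 19 untested symbols, among them the interferon gene IFNL2 with 0, 1 and 2 counts in DHN and 4, 14 and 9 in NC.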

How the results depend on the processing

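A minimum change of 2-fold was the setting that moved the counts most: it asks whether a change exceeds 2-fold, and it left 119 genes called in DHN over NC, 98 higher and 21 lower, and 40 in the interaction. In the other settings each of these counts stayed within 1.5 times its value. Calls in DHN over NC numbered 6349 with DESeq2, 6853 with limma-voom and 6431 without a filter. With each library left out in turn they ran from 6126 to 7112, with 3156 to 3640 higher and 2970 to 3472 lower. Calls of at least 2-fold ran from 426 to 517 higher and from 178 to 202 lower, and those of the interaction from 4051 to 4503. Correlations of deviations between DHN and NC libraries of the same replicate number were small (0.01, 0.05 and 0.031 for numbers 1, 2 and 3). Between different numbers they ran from -0.046 to 0.016. With 3 libraries per group these values cannot decide whether a number marks a shared batch, and the labels do not state it. With the replicate block 6805 genes were called in DHN over NC, 3464 higher and 3341 lower, 437 and 179 of them at least 2-fold, and 4477 in the interaction. Apart from the 2-fold minimum, the call changed in some setting for 11 of the 219 named genes, those given in the report, and no sign was reversed. PCDHB15, ADAMTSL1, FAM162A, FBXW10 and LINC00862, named only for their promoters, are not among the 219. Without a filter 4 members of the 20S core and 6 of the mitochondrial ribosome were called higher. List counts of 5 or fewer often moved by 1 or 2 with a library left out. Depth limits mainly the genes under about 1 CPM.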
